A study of Mus musculus with 5 samples.

Results

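The last 5 Mb of each of the 19 mouse autosomes, the sequence next to the telomere that lies far from the centromere, were examined for islands of 2 histone marks. An island belonged to a chromosome end where its midpoint lay within 5 Mb of the largest island end seen on that chromosome in any of the 4 deposited lists (build mm9). By this rule 3258 of the 73415 islands in the series were members. They comprised 938 of 25867 H3K9me3 islands in proline-treated cells, 884 of 18464 in untreated cells, 815 of 16804 H3K36me3 islands in proline-treated cells and 621 of 12280 in untreated cells. The 19 ends together made up 95 Mb, or 3.94% of the autosomal sequence between the first and last island of each chromosome.

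Chromatin immunoprecipitation with sequencing (ChIP-seq) had been done on the TBV2 line of mouse embryonic stem cells, strain 129/SvP. L-proline-induced cells (PiCs) had received L-proline at 500 µM over 5 days, and the untreated embryonic stem cells (ESCs) were grown for the same 5 days without it. Both were plated sparsely on gelatin without feeder cells, in medium that held leukemia inhibitory factor and lacked non-essential amino acids. Each mark and condition had 1 library from a single line, so differences between PiCs and ESCs have no replicate check and were not tested. Bracketed ranges are exact 95% binomial intervals and cover counting error only. The input library from ESCs was not analysed here, so enrichment over input is not known for any island.

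Mouse autosomes carry the centromere next to one telomere, and coordinates run away from it, so the last bases of each chromosome face the distal telomere. Telomeric and subtelomeric chromatin in mouse cells is known to carry trimethylated lysine 9 of histone H3 (H3K9me3), which is written by the SUV39H and SETDB1 enzymes and read by HP1 proteins, and which also silences repeats. Trimethylated lysine 36 (H3K36me3) is laid down by SETD2 along the bodies of transcribed genes, so its coverage follows the transcribed gene content of a region. L-proline is known to turn cultured mouse ESCs into flatter, motile cells that can return to the starting state when it is withdrawn.

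Chromosome ends were richer in H3K36me3 than the other autosomal sequence in both conditions, and richer in H3K9me3 in ESCs but not in PiCs. In PiCs H3K9me3 islands numbered 9.87 per Mb at the ends and 10.1 per Mb elsewhere, a ratio of 0.974 (0.911 to 1.04), or 1.08 with ends of 2 Mb. In ESCs the densities were 9.31 per Mb at the ends and 7.26 per Mb elsewhere, a ratio of 1.28 (1.20 to 1.37). H3K36me3 islands numbered 8.58 per Mb at the ends and 6.71 per Mb elsewhere in PiCs, a ratio of 1.28 (1.19 to 1.37). In ESCs the H3K36me3 densities were 6.54 per Mb at the ends and 4.90 per Mb elsewhere, a ratio of 1.33 (1.23 to 1.45).

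Covered length gave the same picture. H3K9me3 islands of PiCs covered 3.37% of the ends and 3.81% of the other sequence, and those of ESCs 2.99% of the ends and 2.17% of the other sequence. H3K36me3 islands of PiCs covered 12.1% of the ends and 9.24% of the other sequence, and those of ESCs 11.7% of the ends and 9.35% of the other sequence. The adjoining stretch from 5 to 10 Mb was alike in H3K36me3, with 12.6% covered in PiCs and 11.9% in ESCs. ESC H3K9me3 covered 2.66% of that stretch, so neither richness was limited to the last 5 Mb. The excess at the ends was not spread evenly. The ends held more H3K9me3 islands per Mb than the rest of their own chromosome on 7 of 19 autosomes in PiCs and on 13 of 19 in ESCs, and more H3K36me3 islands on 13 of 19 in either condition. Without chromosomes 4, 11 and 15, singled out after their values had been seen, the end-to-other ratio of island density was 1.07 for ESC H3K9me3, 1.03 for PiC H3K36me3 and 1.09 for ESC H3K36me3.

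Tag density, the number of tags per kb of island, differed little between the ends and the other sequence within each library when summed over all islands. In PiC H3K9me3 islands it was 36.8 tags per kb at the ends and 36.03 elsewhere, and in ESC H3K9me3 islands 25.5 at the ends and 27.2 elsewhere. H3K36me3 islands held 75.1 tags per kb at the ends and 68.9 elsewhere in PiCs, and in ESCs 118.4 at the ends and 112.4 elsewhere. Medians over single islands differed more in ESCs, with end-to-other ratios of 0.916 for H3K9me3 and 1.16 for H3K36me3. In PiCs the ratios of the medians were 1.02 for H3K9me3 and 1.09 for H3K36me3. The lists are not scaled to library size, so tag densities are not compared between conditions. Just inside the 5 Mb line, from 4 to 5 Mb, there were 189 PiC and 208 ESC H3K9me3 islands, and just outside it, from 5 to 6 Mb, 190 in PiCs and 166 in ESCs.

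H3K9me3 islands were about as many in PiCs as in ESCs at the ends, whereas elsewhere PiCs had more. The ends held 938 islands in PiCs and 884 in ESCs, a ratio of 1.06 (0.967 to 1.16). The other autosomal sequence held 23484 in PiCs and 16813 in ESCs, a ratio of 1.40 (1.37 to 1.42). The ratio at the ends divided by that elsewhere was 0.760 (0.691 to 0.836). Covered length at the ends was 3.20 Mb in PiCs and 2.84 Mb in ESCs, a ratio of 1.13, against 1.75 elsewhere. The adjoining stretch from 5 to 10 Mb resembled the ends, with 820 islands in PiCs and 767 in ESCs, a ratio of 1.07 (0.968 to 1.18), so the low ratio was not limited to the last 5 Mb. Without chromosome 15 the ratio at the ends was 1.19 (1.08 to 1.32), and without chromosomes 4, 11 and 15 it was 1.36 (1.22 to 1.51), near that of the other sequence. With lists of equal size, which fixes the whole-list ratio at 1, it was 0.712.

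The 19 ends fell into a wide range. PiCs had more H3K9me3 islands than ESCs at 15 ends and fewer at 4, those of chromosomes 2, 4, 11 and 15. Among all 472 windows of 5 Mb counted back from the autosome ends, 11.9% had fewer islands in PiCs. At 3 ends, chromosomes 4, 11 and 15, the PiC number was at most 1/1.5 of the ESC number, against 4.24% of all windows. At 5 ends it was at least 1.5 times the ESC number, against 50.4% of all windows. Over the 19 ends the ratio ran from 0.256 to 2.03 with a median of 1.23.

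**Figure D1:**
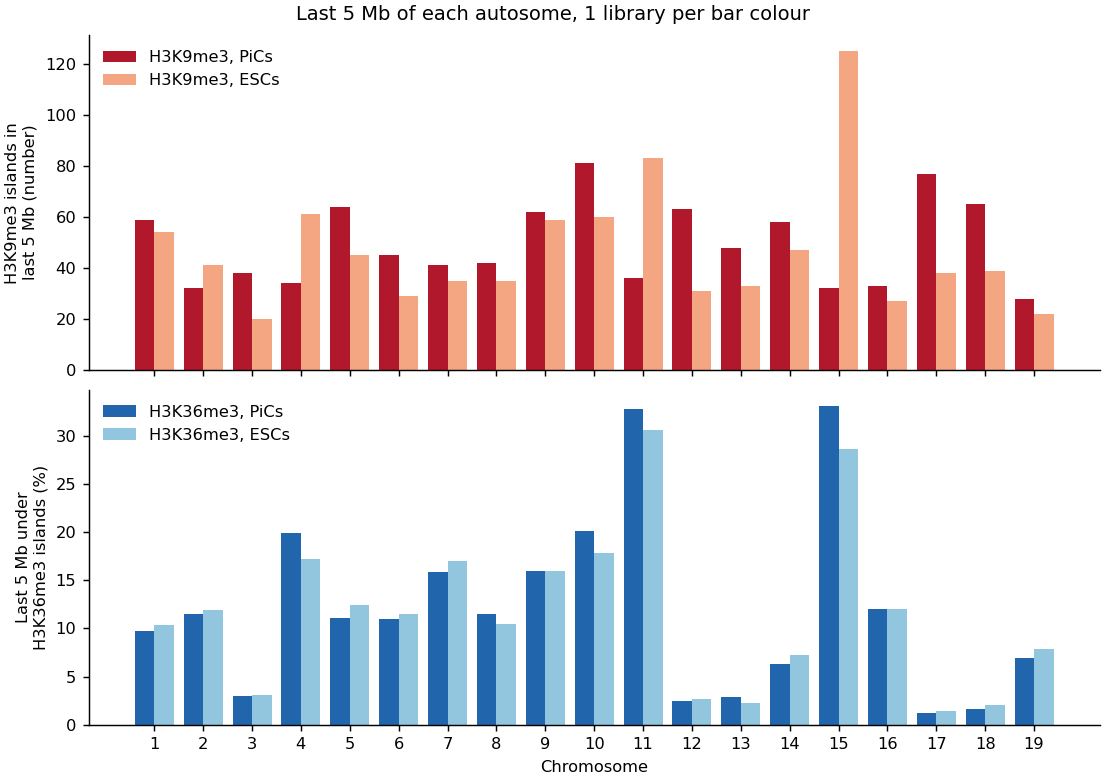
Number of H3K9me3 islands in the last 5 Mb of each autosome (top) and percent of that sequence under H3K36me3 islands (bottom), PiCs left of ESCs, 1 library per bar. The chromosome 15 end stands out with 32 H3K9me3 islands in PiCs and 125 in ESCs, and it and chromosome 11 have the highest H3K36me3 coverage.

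The chromosome 15 end held 32 H3K9me3 islands in PiCs and 125 in ESCs, a ratio of 0.256 (0.168 to 0.380). It spanned positions 98484801 to 103484800. Its ratio was the lowest of all 472 windows, and its ESC number and ESC coverage were the highest. H3K9me3 covered 2.05% of it in PiCs and 10.3% in ESCs, while H3K36me3 covered 33.1% in PiCs and 28.7% in ESCs. Only 28 of the 125 ESC islands overlapped a PiC island, but 26 of the 32 PiC islands overlapped an ESC island. From the end inwards in steps of 1 Mb, PiCs had 6, 2, 6, 11 and 7 H3K9me3 islands and ESCs had 16, 14, 39, 17 and 39, so ESCs had more in every step. In the rest of chromosome 15 the ratio was 1.004.

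The chromosome 11 end had 36 H3K9me3 islands in PiCs and 83 in ESCs, a ratio of 0.434 (0.285 to 0.649), and the rest of that chromosome a ratio of 1.24. In its outermost 1 Mb both conditions had 14 islands. In the next 4 steps of 1 Mb PiCs had 5, 1, 4 and 12 islands and ESCs had 24, 12, 12 and 21. H3K36me3 covered 32.8% of this end in PiCs and 30.6% in ESCs. The chromosome 4 end had 34 H3K9me3 islands in PiCs and 61 in ESCs, a ratio of 0.557 (0.355 to 0.861), with H3K36me3 over 19.9% in PiCs and 17.2% in ESCs. At the chromosome 2 end there were 32 in PiCs and 41 in ESCs, and the interval of the ratio, 0.476 to 1.27, included 1.

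Of the 5 ends with the highest ratios, 4 had little H3K36me3. The chromosome 12 end held 63 H3K9me3 islands in PiCs and 31 in ESCs, a ratio of 2.03 (1.30 to 3.23). At the chromosome 17 end there were 77 in PiCs and 38 in ESCs, a ratio of 2.03 (1.36 to 3.07). At the chromosome 3 end there were 38 in PiCs and 20 in ESCs, a ratio of 1.90 (1.08 to 3.45), and at the chromosome 18 end 65 in PiCs and 39 in ESCs, a ratio of 1.67 (1.10 to 2.55). H3K36me3 covered between 1.20% and 2.94% of these 4 ends in PiCs and between 1.47% and 3.12% in ESCs. The fifth, chromosome 6, had 45 H3K9me3 islands in PiCs and 29 in ESCs, a ratio of 1.55 (0.952 to 2.57), with H3K36me3 near the median of the ends, over 11.03% in PiCs and 11.5% in ESCs. Most ESC islands here had a PiC counterpart. In all, 26 of 31 on chromosome 12, 35 of 38 on chromosome 17, 16 of 20 on chromosome 3 and 36 of 39 on chromosome 18 overlapped a PiC island. The largest covered-length ratio, 3.11, was that of the chromosome 3 end, with 2.68% under H3K9me3 in PiCs and 0.864% in ESCs.

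**Figure D2:**
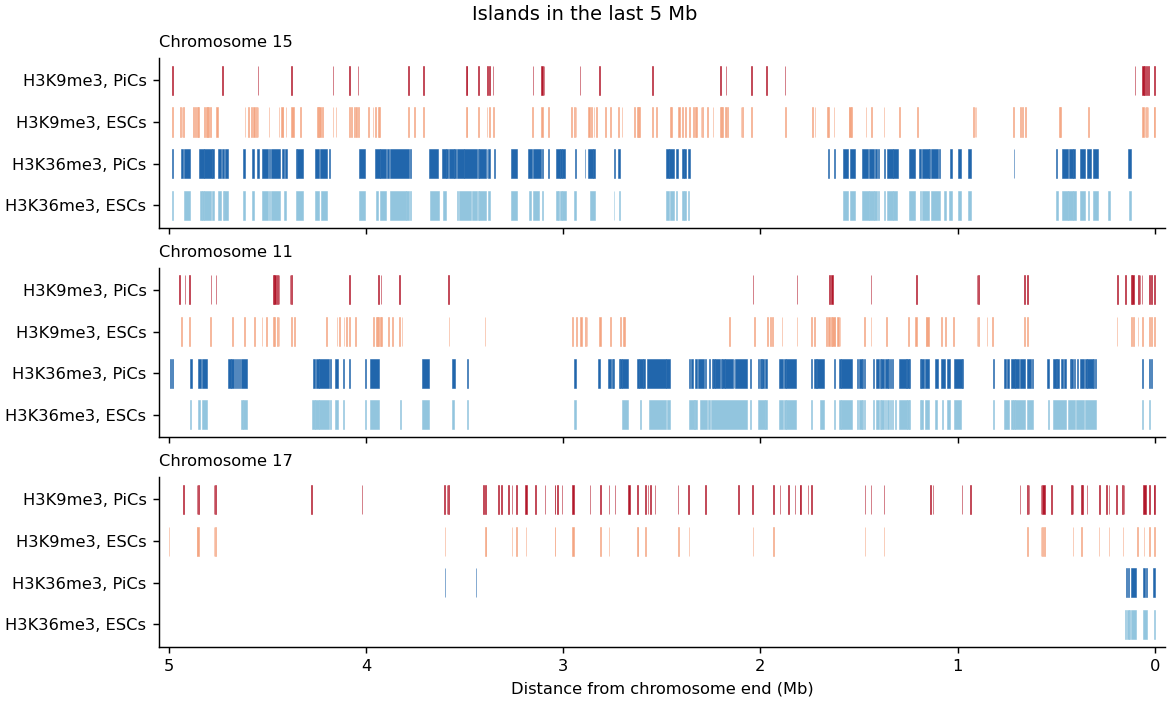
Islands of the 4 lists along the last 5 Mb of chromosomes 15, 11 and 17, drawn by distance from the chromosome end in Mb, PiCs above ESCs for each mark. Chromosomes 15 and 11 show dense H3K36me3 and more H3K9me3 islands in ESCs, and chromosome 17 shows little H3K36me3 and 77 H3K9me3 islands in PiCs against 38 in ESCs.

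No gene annotation of build mm9 was used, so islands were not assigned to genes. As background, the RefSeq gene order of another build, GRCm38.p6, gives the kind of genes that close these chromosomes, without a match to any island. Chromosome 15 ends near Itga5, a subunit of a fibronectin receptor, Nfe2, a transcription factor of blood cells, and Copz1, a coat protein of Golgi vesicles. Chromosome 11 ends near Foxk2, a forkhead transcription factor, and Tbcd, a folding factor for tubulin, and chromosome 4 near Agrn, the agrin of neuromuscular junctions, and Isg15, an interferon-induced modifier protein. Near the end of chromosome 12 lie Sp8, a transcription factor of limb growth, and Dnah11, a motor protein of cilia.

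Across the 19 ends the H3K9me3 ratio fell as H3K36me3 coverage rose. Pearson's r between ESC H3K36me3 coverage and the log2 ratio of H3K9me3 island number was -0.86 and Spearman's rho -0.76. Without chromosomes 11 and 15 they were -0.70 and -0.67 over 17 ends. This is a description over sites that share the same libraries, and neighbouring genes and base composition are common to both axes. The pattern is not particular to the ends, as the other autosomal windows showed it too.

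**Figure D3:**
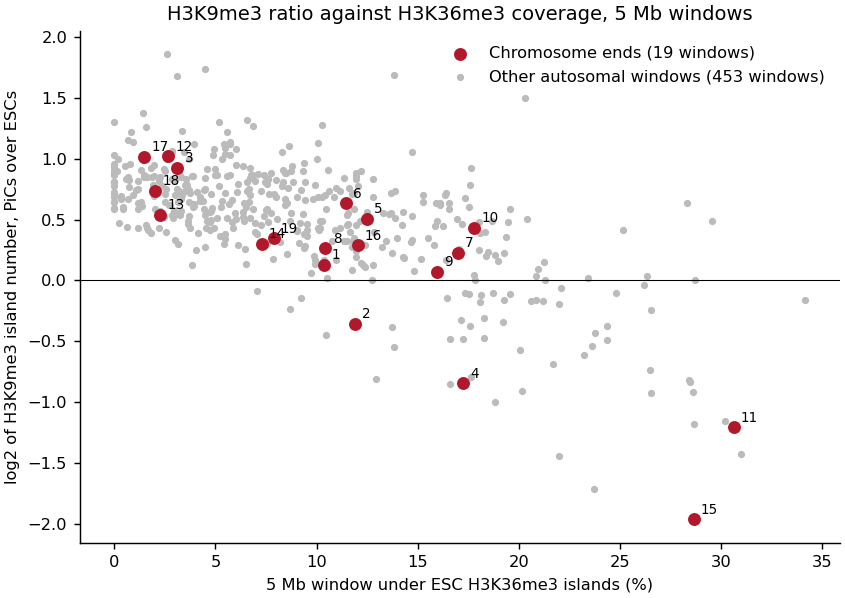
Each point is a 5 Mb window counted back from an autosome end, with the percent under ESC H3K36me3 islands on the x axis and the log2 of the H3K9me3 island number in PiCs over ESCs on the y axis. The 19 ends (red, numbered by chromosome) follow the fall of the 453 other windows, and the chromosome 15 end has the lowest ratio of all 472 windows.

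Ends were therefore set beside windows with like H3K36me3 content. All 472 windows were ranked by ESC H3K36me3 coverage and split into 4 classes of equal size. In the poorest class the 5 ends (chromosomes 3, 12, 13, 17 and 18) held 291 H3K9me3 islands in PiCs and 161 in ESCs, a ratio of 1.81 (1.49 to 2.21), and the 113 other windows had a ratio of 1.68 (1.62 to 1.75). In the next class the 2 ends had a ratio of 1.25 (0.897 to 1.74) and the other 116 windows 1.57 (1.51 to 1.63). In the following class the 6 ends had 275 islands in PiCs and 231 in ESCs, a ratio of 1.19 (0.996 to 1.42), and the other 112 windows 1.42 (1.36 to 1.48).

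In the class richest in H3K36me3 the ends had a lower ratio than other windows. There the 6 ends (chromosomes 4, 7, 9, 10, 11 and 15) held 286 islands in PiCs and 423 in ESCs, a ratio of 0.676 (0.580 to 0.787), and the 112 other windows held 4646 in PiCs and 4606 in ESCs, a ratio of 1.01 (0.968 to 1.05). Per window the ends had 47.7 islands in PiCs and 70.5 in ESCs, and the other windows 41.5 in PiCs and 41.1 in ESCs. Without chromosome 15 the ratio of the ends in this class was 0.852 (0.718 to 1.01), and without chromosomes 11 and 15 it was 1.01 (0.836 to 1.23). Without chromosomes 4, 11 and 15, likewise chosen after seeing the data, it was 1.19 (0.959 to 1.49), so the direction of the gap turned without these 3 ends. Mean ESC H3K36me3 coverage in this class was 21.2% at the ends and 19.5% in the other windows, so the classes were matched only roughly. Among windows with at least 25% under ESC H3K36me3, a limit set after the values had been seen, the 2 ends (chromosomes 11 and 15) had a ratio of 0.327 (0.245 to 0.432) and 16 other windows 0.732 (0.656 to 0.816), with single windows from 0.371 to 1.56.

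The ESC H3K9me3 islands that had no PiC counterpart were weak in tags. Of the 884 ESC islands at the ends, 326 (36.9%) overlapped no PiC island, against 21.1% of all autosomal ESC islands. The stretch from 5 to 10 Mb was alike, with 299 of 767 unmatched (61.0% shared, against 63.1% at the ends). The 326 end islands held a median of 15.8 tags per kb and were 3.2 kb wide. The 558 shared ones held 28.0 tags per kb and were 2.6 kb wide. Elsewhere ESC-only islands were likewise weaker, with 17.5 tags per kb against 27.4 in shared ones. At the chromosome 15 end the 97 ESC-only islands held a median of 15.2 tags per kb and the 28 shared ones 25.4. Of the ESC islands at the chromosome 15 end, 74.4% (65.8 to 81.8) fell among the 25% of ESC H3K9me3 islands with the fewest tags per kb, against 38.1% (34.9 to 41.4) at all ends and 24.4% (23.8 to 25.1) in the other sequence. Low tag density thus moved with the ESC excess at these ends, and its part in the result was not tested. When only the densest 50% of islands per list were used, a setting chosen after seeing the data, the PiC to ESC ratio at the ends was 1.27, and with the 50% of islands that held the most tags in all it was 1.002 (0.874 to 1.15). Without chromosome 15, 69.8% of ESC islands at the ends were shared, and without chromosomes 4, 11 and 15, 77.9%.

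Of the 938 PiC H3K9me3 islands at the ends, 407 (43.4%) overlapped no ESC island, close to the 45% of all autosomal PiC islands. The PiC-only islands held a median of 31.1 tags per kb and the shared ones 36.5. Wide islands were few. Those of at least 10 kb accounted for 1.92% of PiC and 1.36% of ESC H3K9me3 islands at the ends, against 3% of all autosomal islands in PiCs and 1.07% in ESCs. The median H3K9me3 width at the ends was 2.8 kb in both conditions, and elsewhere it was 3.2 kb in PiCs and 2.6 kb in ESCs.

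H3K9me3 met H3K36me3 more often at the ends, above all in ESCs. In PiCs 79 of the 938 end islands of H3K9me3 (8.42%, 6.72 to 10.4) touched an H3K36me3 island of the same condition, against 6.34% of all autosomal islands. In ESCs 127 of 884 did (14.4%, 12.1 to 16.9), against 8.07%. From 5 to 10 Mb the shares were similar, 9.15% in PiCs and 14.5% in ESCs, so they were not particular to the last 5 Mb. ESC-only islands at the ends touched ESC H3K36me3 in 23.9% of cases (19.4 to 28.9) and shared ones in 8.78% (6.57 to 11.4). In the other autosomal sequence these shares were 20.9% (19.5 to 22.3) for ESC-only islands and 4.39% (4.05 to 4.75) for shared ones, so the contrast was present there too. Of the 326 ESC-only islands, 110 (33.7%) touched a PiC H3K36me3 island and 78 (23.9%) an ESC one, against 26.4% with a PiC and 20.9% with an ESC one elsewhere. The chromosome 15 end supplied 31 of those 78. Without chromosomes 4, 11 and 15 the touching shares of H3K9me3 end islands were 6.82% in PiCs and 8.78% in ESCs, near those of all autosomal islands. Of the H3K36me3 end islands, 76 in PiCs (9.33%, against 8.97% of all autosomal islands) and 104 in ESCs (16.7%, against 10.4%) touched H3K9me3.

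H3K9me3 was densest in the outermost part of the chromosomes in both conditions. In the last 50 kb the islands covered 23.2% of the sequence in PiCs and 12.8% in ESCs. Without the islands that set the chromosome ends, mostly PiC H3K9me3 islands, coverage of that stretch was 15.3% in PiCs and 12.1% in ESCs. The PiC to ESC ratio of island number there was then 0.775 (0.469 to 1.27) in place of 1.09. H3K9me3 islands reached the end on 16 autosomes in PiCs and 3 in ESCs, so this removal by itself lowers the ratio. Without the outermost island of each list and chromosome, coverage was 15.2% in PiCs and 9.28% in ESCs. The number ratio in that setting was 1.07 (0.619 to 1.86). From 50 to 100 kb coverage was 21.9% in PiCs and 13.5% in ESCs. From 100 to 200 kb coverage was 7.52% in PiCs and 4.31% in ESCs, and from 200 to 400 kb 5.53% in PiCs and 2.65% in ESCs. Between 1 and 5 Mb it was 2.75% in PiCs and 2.86% in ESCs. H3K36me3 covered 14.3% of the last 50 kb in PiCs and 12.7% in ESCs, and without the islands that set the ends 8.91% in PiCs and 8.34% in ESCs. In the last 200 kb it covered 10.4% in PiCs and 9.77% in ESCs, and from 1 to 5 Mb 12.2% in PiCs and 11.7% in ESCs.

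**Figure D4:**
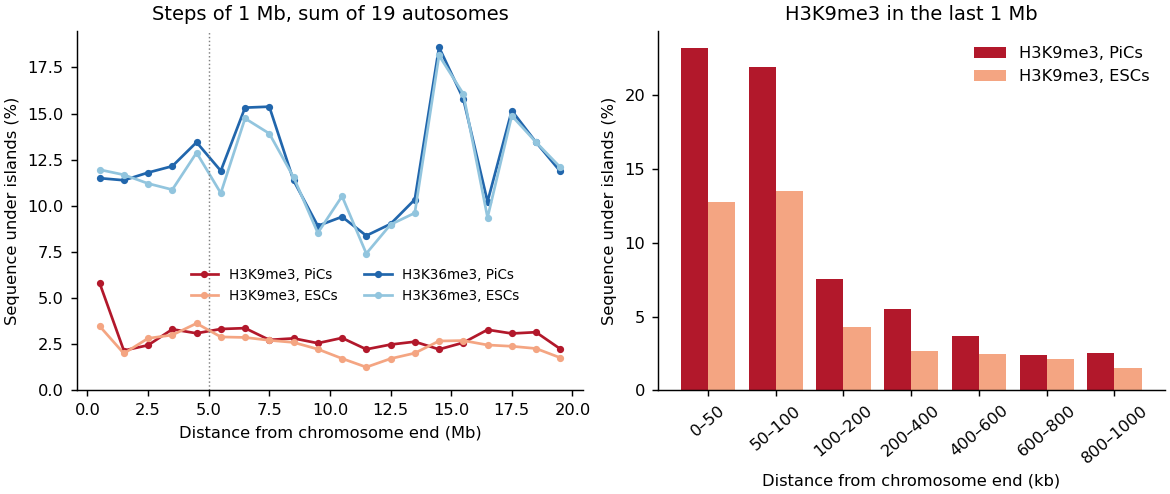
Percent of sequence under islands by distance from the chromosome end, summed over 19 autosomes. The left panel gives the 4 lists in steps of 1 Mb with a dotted line at 5 Mb, and the right panel gives H3K9me3 in the last 1 Mb, PiCs left of ESCs, where coverage is highest in the outermost 100 kb.

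The outermost 200 kb carried an H3K9me3 island on all 19 autosomes in PiCs and on 18 in ESCs, the exception being chromosome 3. There were 126 such islands in PiCs and 105 in ESCs, a ratio of 1.20 (0.919 to 1.57). The covered lengths gave 1.72, close to the 1.75 of the other autosomal sequence. Without the islands that set the ends the number ratio was 1.08 (0.816 to 1.43) and the covered-length ratio 1.53. That removal takes more PiC than ESC islands and so lowers both ratios by itself. With the outermost island of each list and chromosome left out instead, they were 1.23 (0.918 to 1.65) and 1.75. PiC coverage exceeded ESC coverage on 17 autosomes, and ESC coverage was the larger on chromosomes 4 and 7. By chromosome, coverage of the last 200 kb had a median of 13.5% in PiCs (0.9% to 38.7%) and 5.7% in ESCs (0% to 27.5%). Chromosome 1 had the most, with 38.7% in PiCs and 27.5% in ESCs, followed by chromosome 16 with 30.9% in PiCs and 19.6% in ESCs. It exceeded the coverage of the chromosome outside its last 5 Mb on 17 autosomes in PiCs and 16 in ESCs.

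Because the end of each chromosome was itself set by an island, an island at the edge is given by the rule. PiC H3K9me3 islands set the end on 16 autosomes. Without the outermost island of each list and chromosome, the last 200 kb still had 12.8% under H3K9me3 in PiCs and 7.31% in ESCs. These outermost islands were mostly common to both conditions. Of the ESC islands in the last 200 kb 93.3% overlapped a PiC island, compared with 56.0% between 1 and 5 Mb and 79.7% in the other autosomal sequence. Of the PiC islands 65.9% overlapped an ESC island, compared with 55.2% between 1 and 5 Mb and 54.97% in the other sequence. Without chromosomes 4, 11 and 15 the ESC share over the whole 5 Mb was 77.9%. On all 19 autosomes, H3K9me3 islands in the last 200 kb held 40.2 tags per kb in PiCs and 32.1 in ESCs. Those from 1 to 5 Mb held 35.7 in PiCs and 23.9 in ESCs. At the tips of chromosomes 15 and 11, which have few PiC islands further in, PiC islands covered 13.7% and 19.6% of the last 200 kb and ESC islands 8.0% and 8.8%.

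H3K36me3 at the ends was much alike in both conditions in extent, and lay in more islands in PiCs. The 815 PiC and 621 ESC islands gave a ratio of 1.31 (1.18 to 1.46), near the 1.37 (1.34 to 1.40) of the other sequence. With lists of equal size the ratio at the ends was 1.04 (0.926 to 1.16). Covered length was 11.5 Mb in PiCs and 11.1 Mb in ESCs, a ratio of 1.03, which was 0.980 without chromosomes 4, 11 and 15. All 19 ends had more H3K36me3 islands in PiCs, with ratios from 1.12 to 1.71. This was not particular to the ends, as only 3.25% of all 431 windows tested had fewer. Covered length was larger in PiCs at 7 ends, smaller at 11 and equal at 1. The median width of end islands was 9.4 kb in PiCs and 12.2 kb in ESCs. Of the H3K36me3 end islands 46.5% were 10 kb or wider in PiCs, against 44.8% of all autosomal islands, and 59.3% in ESCs, against 62.2%. At 4 ends the PiC number was at least 1.5 times the ESC number, against 39.4% of windows, and at none was it at most 1/1.5 of it, against 0.232%. In PiCs 151 of the 815 islands (18.5%) overlapped no ESC island, against 20.4% of all autosomal islands, and in ESCs 52 of 621 (8.37%) overlapped no PiC island, against 10%.

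Coverage by H3K36me3 varied over the ends far more than H3K9me3 did. It ran from 1.20% on chromosome 17 to 33.1% on chromosome 15 in PiCs, with a median of 11.1%, and from 1.47% on chromosome 17 to 30.6% on chromosome 11 in ESCs, with a median of 11.5%. H3K9me3 coverage ran from 1.08% on chromosome 19 to 5.74% on chromosome 10 in PiCs and from 0.864% on chromosome 3 to 10.3% on chromosome 15 in ESCs. The chromosome 11 end had the highest H3K36me3 coverage of any window on its chromosome in both conditions. H3K36me3 coverage differed most at the chromosome 15 end, where it was 4.46 percentage points higher in PiCs. Next came the ends of chromosomes 4 (2.62 points), 10 (2.34) and 11 (2.17). In all it was higher in PiCs at 7 ends and lower at 11.

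The H3K9me3 sites with the most tags were common to both conditions. First was a 4.2 kb island on chromosome 9 (123840801 to 123845000), 0.23 Mb from the end, with 1430 tags in PiCs and 902 in ESCs. Islands of both marks had these same edges in all 4 lists, with 340.5 tags per kb in PiCs and 214.8 in ESCs for H3K9me3, and 178.8 in PiCs and 532.1 in ESCs for H3K36me3. The medians of the whole lists were 33 (PiC) and 25.5 (ESC) for H3K9me3, and 48.9 (PiC) and 71.3 (ESC) for H3K36me3. Whether this site stands above input was not tested, so it cannot be taken as carrying both marks. Next came an island on chromosome 7 at 150399001 to 150419400 in PiCs (20.4 kb, 64.6 tags per kb) and 150401801 to 150416200 in ESCs (14.4 kb, 51.3 tags per kb), the widest of the ESC end islands. It carried no H3K36me3 in either condition.

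The widest PiC H3K9me3 islands lay at the very end of chromosome 8 (131711201 to 131735800, 24.6 kb) and near that of chromosome 2 (181662601 to 181683400, 20.8 kb). Each was broken up in ESCs, into 3 islands that covered 51.2% of the first and 4 that covered 52.9% of the second. The other widest ESC island, on chromosome 15 at 99103401 to 99117400 (14 kb), met a single PiC island of 3.8 kb that covered 27.1% of it.

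H3K9me3 end islands that lay over 10 kb from any island of the opposite condition amounted to 291 in PiCs (31%, against 32.6% of all autosomal islands) and 278 in ESCs (31.4%, against 17.3%). The widest PiC one, of 9.6 kb, lay on chromosome 3 (positions 155903001 to 155912600). Next in width came 9 kb on chromosome 10 (positions 129949001 to 129958000) and 8 kb on chromosome 18 (positions 87536601 to 87544600). No H3K36me3 island touched them. In ESCs the widest lay on chromosomes 15 and 11. One on chromosome 15 at 100611001 to 100621600 (10.6 kb, 14.8 tags per kb) was free of H3K36me3 in ESCs and 92.5% covered by it in PiCs. It ran from 2.8738 to 2.8632 Mb before the chromosome end, and an ESC H3K36me3 island began close by, from 2.8624 to 2.8372 Mb. The PiC H3K36me3 island, from 2.873 to 2.8492 Mb, overlapped both. One on chromosome 11 at 120673001 to 120683600 (10.6 kb, 12.4 tags per kb) was wholly under H3K36me3 in both conditions. The last, on chromosome 11 at 118913401 to 118923400 (10 kb, 13.6 tags per kb), had none in either.

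The largest H3K36me3 island of the ends was a 183 kb ESC island on chromosome 11 (119579001 to 119762000), which met 8 PiC islands that covered 90.6% of it. Its neighbour spanned 119255601 to 119350200 in PiCs (94.6 kb) and 119264401 to 119350800 in ESCs (86.4 kb). The widest and most tagged PiC island lay on chromosome 15 at 99607401 to 99704400 (97 kb, 9153 tags), 97.5% of it also covered in ESCs. On chromosome 2 a PiC island at 179907201 to 179959400 held 8747 tags. In ESCs the most tagged were on chromosome 16 at 96231801 to 96302800 (15812 tags) and chromosome 15 at 102302201 to 102340800 (15569 tags, 403.3 per kb), and PiC islands covered 99.2% and 99.5% of them.

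H3K36me3 end islands more than 10 kb from any island of the opposite condition numbered 90 in PiCs (11%, against 12.9% of all autosomal islands) and 36 in ESCs (5.8%, against 6.37%). The widest PiC ones were 26.8 kb wide, on chromosome 4 (positions 151735601 to 151762400) and on chromosome 15 (positions 99903201 to 99930000), followed by a 22 kb island on chromosome 4 (positions 153649801 to 153671800). H3K9me3 covered none of the first of these in PiCs and 5.97% in ESCs. The widest ESC ones were 12.8 kb wide, on chromosome 9 (positions 120076401 to 120089200) and chromosome 14 (positions 123323201 to 123336000), followed by a 12.4 kb island on chromosome 7 (positions 150213201 to 150225600). H3K9me3 covered none of the chromosome 9 island in PiCs and 28.1% in ESCs.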

How the data were processed

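Histone H3K9me3 and H3K36me3 ChIP-seq islands of PiCs and ESCs were analysed, 1 library per mark and condition, grouped by sample title. Per the labels' protocols, the immunoprecipitated DNA was PCR-amplified into SOLiD fragment libraries. Per the submitters' processing notes, SICER and build mm9 were used to make the island lists. For the SICER version and thresholds, the aligner, duplicates and the use of the input: not given in the sources used here. A deposited list holds chromosome, start, end and a whole number, read as the authors' count of tags per island, unscaled. These counts summed to 3514489 (PiC) and 1511058 (ESC) tags for H3K9me3 and to 15787192 and 26055650 for H3K36me3, in called islands only, so library depth is unknown.

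Ends lay on a 200 bp grid as the last base counted from 0, and positions are given 1-based. The other autosomal sequence ran from the first island of a chromosome to 5 Mb before its largest island end. Shared islands overlapped by 1 bp or more. Python 3.11.15, numpy 2.4.6, pandas 2.3.3 and scipy 1.17.1 were used, and overlap functions were checked against brute force on 300 islands, with 0 mismatches. Intervals are exact (Clopper-Pearson), and for the ratio of 2 ratios the exact conditional interval of the odds ratio. Neighbouring islands and PCR copies are not independent, so these cover counting error only. With 1 library per group no p-value was computed. Regions named were the 2 widest and the 2 most tagged end islands of each list and, per mark and condition, the 3 widest isolated ones. Chromosomes named were those with the highest and lowest ratios and covered shares and chromosome 15. Others, such as 2, 3, 4, 11 and 18, were chosen after their values were seen. The members, lists and comparisons were chosen with earlier results of these data known. Alternatives were ends of 2 and 10 Mb, the 50% of islands with the most tags, equal list sizes, islands of at least 1 kb, removal of chromosome 15 and other overlap rules. Settings without chromosomes 4, 11 and 15, with the 50% densest islands and without outermost islands were chosen after seeing the data. No sequences are printed, because no mm9 sequence was used here.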

Additional observations from a re-analysis of the deposited data

How the results depend on the processing

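No paired analysis was possible because only 1 library stood for each mark and condition. Of 188 values recomputed, 132 lay within the interval of the reported value and 56 outside it. Covered length, covered share and tags per kb have no counting interval of their own. The interval of the island number was scaled to them, which is only a rough yardstick. In all, 12 ratios fell on the other side of 1. For 2 of them, of covered length and covered share and marked reversed below, the scaled interval of the reported ratio left out 1. Another 5 are among the moved values below. The last 5 stayed within the interval, namely H3K36me3 covered length, PiC to ESC (0.968 with 2 Mb, 0.969 with equal lists, 0.980 without chromosomes 4, 11 and 15), and PiC H3K9me3 density, ends to other (1.02 without those chromosomes, 1.01 with most tags per kb). The cause of these moves was not tested, beyond what each setting removes. Settings without chromosomes 4, 11 and 15 and with the islands of most tags per kb were chosen after seeing the data.

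The PiC to ESC ratio of H3K9me3 island number (1.06) was 1.20 in the last 2 Mb, 0.712 with lists of equal size, 1.19 without chromosome 15, 1.36 without chromosomes 4, 11 and 15 and 1.27 with the 50% of islands of most tags per kb. In the same order the ratio of covered length (1.13) was 1.45, 0.956 (reversed), 1.33, 1.63 and 1.53. With equal lists the H3K36me3 number ratio was 1.04.

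The following are ratios of the ends to other sequence. For PiC H3K9me3 the island density was 1.08 with 2 Mb, 0.907 with 10 Mb, 0.856 with the 50% of islands of most tags and 0.907 with equal lists, and the covered share was 1.05 (reversed) with 2 Mb, 0.824 with 10 Mb and 0.823 with the 50% of most tags. For ESC H3K9me3 the density was 1.18 without chromosome 15, 1.07 without the 3 chromosomes and 1.12 with most tags per kb. Its covered share was 1.25 with 2 Mb and, in those 3 settings, 1.22, 1.04 and 1.14. Its tags per kb were 1.03 with 2 Mb, 1.06 without the 3 chromosomes and 1.06 with most tags per kb. For PiC H3K36me3 the density was 1.42 with most tags, 1.38 with equal lists, 1.03 without the 3 chromosomes and 1.45 with most tags per kb, and the covered share 1.18 without chromosome 15 and 1.02 without the 3. For ESC H3K36me3 the density was 1.09 without the 3 and 1.56 with most tags per kb, and the covered share 1.15 without chromosome 15 and 1.02 without the 3.

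The shares of end islands also found in the opposite condition moved most with the overlap rule. With 50% of both islands required, they were 38.1% (PiC) and 40.4% (ESC) for H3K9me3 and 57.4% and 75.4% for H3K36me3. With equal lists they were 67.6%, 51.8%, 89.3% and 84.1% in that order. For PiC H3K9me3 the share was 60.3% with islands within 2 kb counted and 48.5% with most tags per kb. For ESC H3K9me3 it was 75.5% with 2 Mb, 69.8% without chromosome 15 and 77.9% without the 3. For PiC H3K36me3 it was 85.8% with 2 Mb and 76.7% with most tags or most tags per kb. For ESC H3K36me3 it was 96.1% with most tags and 88.6% without the 3. Library depth is unknown, so list size cannot be told apart from a change in the mark.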
